A study of Mus musculus with 6 samples.

Results

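Genes that move, store or release iron were followed across the libraries, and all 10 of them were found by symbol among the 54752 genes of the count tables. They are Hmox1, which frees iron from heme, the ferritin subunits Fth1 and Ftl1, the transferrin receptor Tfrc and its ligand transferrin (Trf), the iron transporters Slc11a1 and Slc11a2, the exporter ferroportin (Slc40a1), the ferroxidase ceruloplasmin (Cp), and lipocalin 2 (Lcn2), which captures bacterial siderophores. The RNA came from the entire right hippocampus of wild-type (WT) male C57BL/6 mice aged 14 weeks, 3 Sham and 3 BCAS, with 1 library per mouse. BCAS mice had a microcoil around each common carotid artery, the narrower coil being on the right, and were examined 3 weeks later. Sham mice went through the surgery without coils. Each library is a mixture of all hippocampal cells, so a change in the number of cells of a type and a change in RNA per cell cannot be told apart.

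Cells take up iron mainly as transferrin-bound ferric iron through the transferrin receptor, reduce it in the endosome and pass it to the cytosol through a transporter of the NRAMP family, to which Slc11a1 and Slc11a2 belong. Iron that is not used is held in the shell of ferritin, built from heavy chains (Fth1), which oxidize iron, and light chains (Ftl1), which help to mineralize it. Ferroportin exports iron and ceruloplasmin oxidizes it for loading onto transferrin. In the brain, transferrin is made largely by oligodendrocytes and choroid plexus, ceruloplasmin by astrocytes, and macrophages and microglia recycle iron from heme through heme oxygenase 1.

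Part of this system is controlled through a hairpin in the mRNA, the iron-responsive element, which iron regulatory proteins bind when iron is scarce. In a 5′ UTR the bound element blocks translation, and in a 3′ UTR it protects the mRNA from decay. The longest coding transcript of each gene in GENCODE M21 (GRCm38, the assembly of mm10) was searched on the transcript strand for a hairpin of this shape. It was defined as an unpaired C, 5 bases, the loop CAGTGN with any last base except G, and 5 bases that pair with the first 5. Pairs of G with T (U in the mRNA) were accepted beside the standard pairs. Of 21877 genes with a coding transcript, 204 (0.932%) held a match. Of the 10 iron handling genes, 4 held one. They are printed here with 6 bases more on each side, 29 bases in all, the loop in capitals. They show which of the searched transcripts held a match and at which end.
Fth1, 5′ UTR, chr19:9982732-9982760, plus strand: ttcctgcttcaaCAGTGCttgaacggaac
Ftl1, 5′ UTR, chr7:45459779-45459807, minus strand: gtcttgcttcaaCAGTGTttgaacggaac
Slc40a1, 5′ UTR, chr1:45925465-45925493, minus strand: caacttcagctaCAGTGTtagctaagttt
Tfrc, 3′ UTR, element 1, chr16:32631219-32631247, plus strand: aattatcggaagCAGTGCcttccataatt
Tfrc, 3′ UTR, element 2, chr16:32631598-32631626, plus strand: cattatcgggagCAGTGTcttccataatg
Tfrc, 3′ UTR, element 3, chr16:32631663-32631691, plus strand: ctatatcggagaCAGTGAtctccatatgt
Tfrc, 3′ UTR, element 4, chr16:32631710-32631738, plus strand: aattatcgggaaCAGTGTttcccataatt
The elements of Fth1 and Ftl1 were identical at 26 of 29 bases. The 4 elements of Tfrc were identical to one another at 18 to 25 of 29 bases. A match describes the letters only, and the other 6 genes had none by this rule in the transcript searched. An element of another shape or in another transcript would be missed, so a gene without a match may still carry one.

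Counts were scaled to CPM, in which a gene's count is taken relative to the size of its library, with edgeR's TMM factors. Library totals lay between 29652456 and 35607098 counts, and 3 counts, taken as the limit of detection, equal 0.0875 to 0.0995 CPM. Fold changes and adjusted P values below come from edgeR's quasi-likelihood test over 18617 genes with Benjamini-Hochberg adjustment. A gene rose or fell where its adjusted P was under 0.05, and a DEG also needed an absolute log2 fold change above 1. All 10 iron handling genes passed the filter on low counts. Of these, 7 rose, 1 fell and 2 did not pass, and 5 of the 7 were up-regulated DEGs. Among all tested genes 18.0% rose, 13.2% fell, 8.47% were up-regulated DEGs and 0.999% were down-regulated DEGs, of which the 10 held none. The median log2 fold change was 1.15 over the 10 genes and 0.018 over all tested genes. Libraries differed widely in choroid plexus markers, 8 of which summed to 1009.9, 4171 and 72.4 CPM in Sham mice 1 to 3 and to 6070.4, 49.0 and 3298 CPM in BCAS mice 1 to 3. Markers of microglia, summed over 8 genes, ran from 308 to 322 CPM in Sham mice and from 1492 to 2383 CPM in BCAS mice, and all 8 rose.

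**Figure D1:**
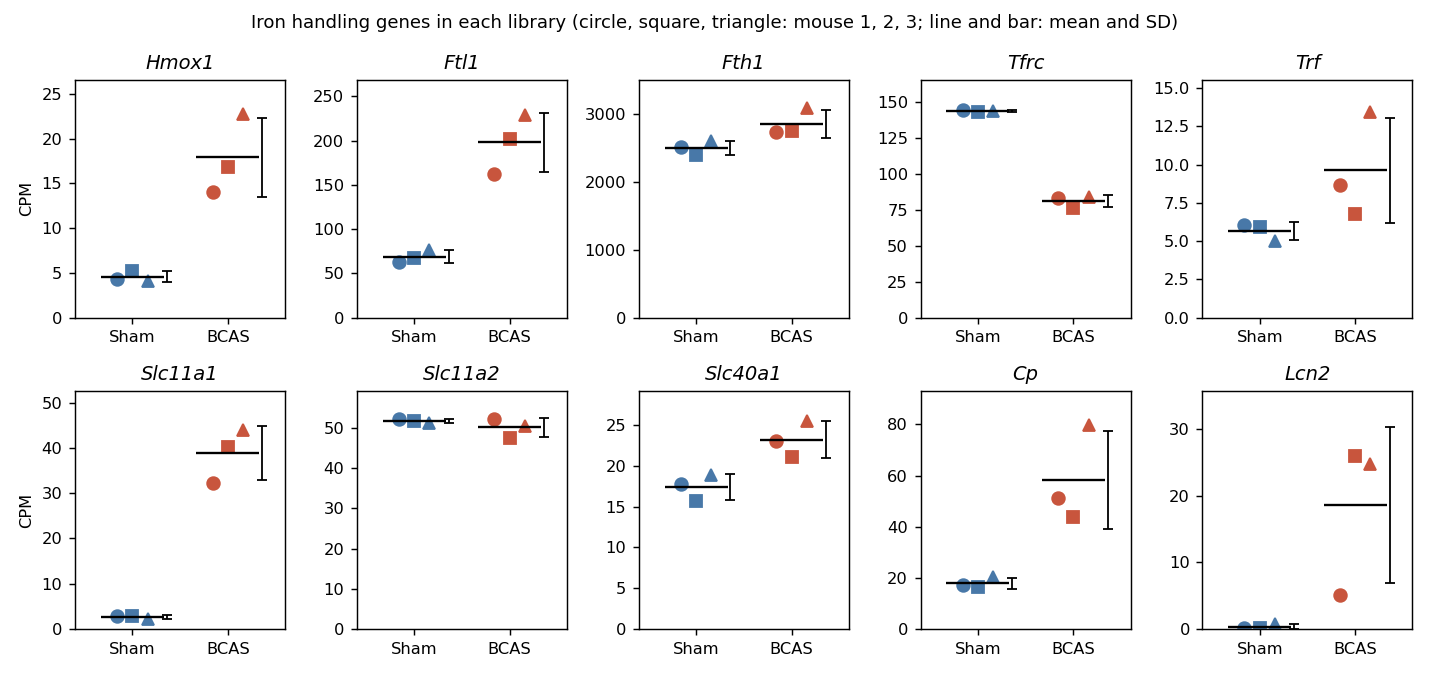
CPM of the 10 iron handling genes in each of the 6 libraries, on axes that start at 0 (circle, square and triangle are mice 1, 2 and 3, lines are group means and bars are SD, n = 3). BCAS mice lie above all Sham mice for 8 genes, below them for Tfrc, and overlap with them for Slc11a2.

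Every BCAS mouse was above every Sham mouse for 8 of the 10 genes, against 25.3% of all tested genes, and every BCAS mouse was below for 1, against 22.7%. Slc11a2 was the gene whose groups overlapped.

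The mRNA of heme oxygenase 1, the inducible enzyme that opens the heme ring, was about 4 times as abundant after BCAS. Hmox1 (ENSMUSG00000005413.8, chromosome 8, 75093621 to 75100589) had 4.28, 5.24 and 4.14 CPM in Sham mice 1 to 3 and 14.1, 16.8 and 22.8 CPM in BCAS mice 1 to 3. All 3 BCAS mice stood far above the Sham mice, and mouse 3 was the highest. The means were 4.55 ± 0.598 and 17.9 ± 4.46 CPM (SD, n = 3 each), a ratio of 3.93, and edgeR gave a log2 fold change of 1.97 ± 0.20 (SE, adjusted P = 1.59e-04). Leaving out any one mouse kept it between 1.76 and 2.12. The enzyme is strongly made by iron-recycling macrophages. Of 6 markers of border-associated macrophages 4 rose, beside 18.0% of all tested genes. Their sum ran from 10.3 to 14.8 CPM in Sham mice and from 25.7 to 33.5 CPM in BCAS mice. The part of these cells and of microglia in the change of Hmox1 was not tested.

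The ferritin genes moved unequally. Ftl1, the light chain (ENSMUSG00000050708.16, chromosome 7, 45457944 to 45459884), had 62.4, 66.9 and 76.7 CPM in Sham mice and 162, 202 and 229 CPM in BCAS mice. Its lowest BCAS value was more than double the highest Sham value. The means were 68.7 ± 7.30 and 198 ± 33.6 CPM (SD, n = 3 each), and edgeR gave 1.53 ± 0.13 on the log2 scale (SE, adjusted P = 7.77e-05). Fth1, the heavy chain (ENSMUSG00000024661.6, chromosome 19, 9982703 to 9985092), was by far the most abundant transcript of the 10, with 2511, 2388 and 2600.2 CPM in Sham mice and 2731, 2741 and 3091 CPM in BCAS mice. The groups did not overlap, but the shift was small. The log2 fold change of Fth1 was 0.19 with a 95% interval from -0.10 to 0.48, and it did not pass the test (edgeR adjusted P = 0.295).

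The balance between the chains was measured within each library as the log2 ratio of Fth1 to Ftl1 counts per kb of exon. It was 5.96, 5.79 and 5.71 in Sham mice and 4.70, 4.39 and 4.38 in BCAS mice. The groups were apart, with means of 5.82 ± 0.13 and 4.49 ± 0.18 (SD, n = 3 each). The difference of the means was -1.33 on the log2 scale (exact two-sided permutation test, P = 0.1, the smallest that 3 against 3 can give). The height of this ratio is not a ratio of mRNA levels. Of the 100-base windows of the longest Ftl1 coding transcript, 78.6% also occur in annotated transcripts of 6 other genes. Of these genes, Gm22133 and Gm10252 overlap Ftl1 itself and cover 34.6% of its exonic bases (464 of 1340). Reads that align to several places or lie on exons of several genes were not counted by the authors. The Ftl1 count therefore rests on the rest of the mRNA. For Fth1 the share of windows found in other genes was 0.574%. The pseudogene Ftl1-ps1, which holds windows of Ftl1, was counted 29, 45 and 36 times in Sham mice against 119, 98 and 111 times in BCAS mice. How many of these reads came from Ftl1 was not tested.

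**Figure D2:**
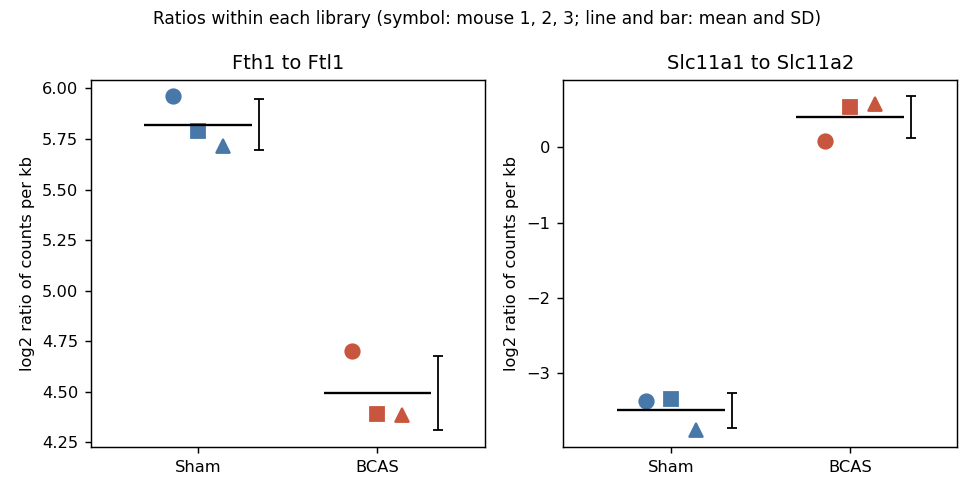
Log2 ratio of counts per kb between the 2 ferritin chains (left) and the 2 NRAMP transporters (right) in each library (symbols are mice 1, 2 and 3, lines are means, bars are SD, n = 3). The ferritin ratio is lower in every BCAS mouse, at 4.38 to 4.70 against 5.71 to 5.96, and the Slc11a1 to Slc11a2 ratio is higher in every BCAS mouse.

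The transferrin receptor mRNA went the other way. Tfrc, the transferrin receptor (ENSMUSG00000022797.16, chromosome 16, 32608920 to 32632794), was the only one of the 10 genes that fell. It had 144, 143 and 144 CPM in Sham mice and 83.5, 76.1 and 83.6 CPM in BCAS mice. The Sham mice were nearly identical and every BCAS mouse was far below them. The means were 144 ± 0.498 and 81.1 ± 4.30 CPM (SD, n = 3 each), a ratio of 0.564, and edgeR gave -0.83 ± 0.07 on the log2 scale (SE, adjusted P = 6.28e-05). Tfrc therefore passed the test without reaching the fold change of a DEG, and leaving out any one mouse kept it between -0.86 and -0.79. Among the cell type markers, 7 of 8 neuronal genes also fell, beside 13.2% of all tested genes. The median log2 fold change over the 8 was -0.59. Their sums were 9284 to 9842 CPM in Sham mice and 4841 to 7084 CPM in BCAS mice. Endothelial markers did not fall, and 5 of 8 rose, beside 18.0% of all tested genes, with sums of 327 to 361 and 439 to 498 CPM. The part of either cell type in the change of Tfrc was not tested.

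Transferrin rose weakly. Trf (ENSMUSG00000032554.15, chromosome 9, 103204001 to 103230444) had 6.05, 5.96 and 4.99 CPM in Sham mice and 8.68, 6.80 and 13.5 CPM in BCAS mice. The groups were apart by a narrow margin, and BCAS mouse 3 was much higher than the other two. The means were 5.66 ± 0.589 and 9.65 ± 3.44 CPM (SD, n = 3 each), and edgeR gave 0.77 ± 0.24 on the log2 scale (SE, adjusted P = 0.0401). The call was lost without any single mouse except BCAS mouse 2, and without BCAS mouse 3 the log2 fold change was 0.44 (edgeR adjusted P = 0.115). The level of Trf is not that of the whole mRNA, since 63.5% of its exonic bases (2108 of 3320) are also exons of Gm20425, an overlapping gene model on the same strand. Reads on such bases are assigned to neither gene in this counting, and Gm20425 had 0 counts in every library. The 8 oligodendrocyte markers, none of which passed the test, summed to 6482, 6016 and 5283 CPM in Sham mice and to 6658, 6028 and 9107 CPM in BCAS mice. In both groups they had the order of Trf between mice, lowest in Sham mouse 3 and BCAS mouse 2 and highest in Sham mouse 1 and BCAS mouse 3. The choroid plexus sum was also lowest in Sham mouse 3 (72.4 CPM) and BCAS mouse 2 (49.0 CPM). The part of either cell type in the change of Trf was not tested.

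The 2 transporters that carry iron out of endosomes and phagosomes differed sharply. Slc11a1 (NRAMP1), the phagosomal transporter of macrophages (ENSMUSG00000026177.11, chromosome 1, 74375195 to 74386062), was counted 100, 99 and 76 times in Sham mice 1 to 3 against 1052, 1217 and 1372 times in BCAS mice 1 to 3. This corresponds to 2.95, 2.96 and 2.22 CPM against 32.4, 40.3 and 44.0 CPM, so that the lowest BCAS mouse was over 10 times the highest Sham mouse. The ratio of the means was 14.4, and edgeR gave 3.84 ± 0.17 on the log2 scale (SE, adjusted P = 7.25e-06). Slc11a1 is a gene of myeloid cells, and its log2 fold change lay above those of all 8 microglia markers, which ran from 1.54 (P2ry12) to 3.14 (Aif1). Neither the difference between Slc11a1 and the markers nor the part of microglia in its change was tested. Slc11a2 (DMT1), the transporter that most cells use (ENSMUSG00000023030.16, chromosome 15, 100387898 to 100425072), had 52.2, 51.6 and 51.2 CPM in Sham mice and 52.4, 47.5 and 50.6 CPM in BCAS mice. The groups overlapped. Its log2 fold change was -0.04 with a 95% interval from -0.20 to 0.12 (edgeR adjusted P = 0.683), and it was 0.033 when library totals replaced TMM.

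Set against each other within a library, the log2 ratio of Slc11a1 to Slc11a2 counts per kb was -3.37, -3.34 and -3.75 in Sham mice and 0.085, 0.54 and 0.58 in BCAS mice. By the annotated exon lengths, Slc11a1 per kb was thus at 0.0742 to 0.0984 of the Slc11a2 level in Sham mice. In BCAS mice it was at 1.06 to 1.49 of that level. The difference of 3.89 on the log2 scale was far larger than the SD of 0.23 in Sham and 0.27 in BCAS mice (n = 3 each, exact two-sided permutation test, P = 0.1, the smallest possible).

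For iron export, the mRNA of ferroportin rose slightly and that of ceruloplasmin to more than 3 times its Sham level. Slc40a1 (ENSMUSG00000025993.10, chromosome 1, 45908068 to 45926523) had 17.7, 15.7 and 18.9 CPM in Sham mice and 23.0, 21.2 and 25.6 CPM in BCAS mice. The groups were apart but close. On the log2 scale edgeR gave 0.42 ± 0.12 (SE, adjusted P = 0.0263), and the adjusted P rose to between 0.0579 and 0.102 without Sham mouse 1, Sham mouse 2, BCAS mouse 1 or BCAS mouse 3.

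Cp (ENSMUSG00000003617.16, chromosome 3, 19957054 to 20009145) had 17.1, 16.4 and 20.3 CPM in Sham mice and 51.0, 43.8 and 79.9 CPM in BCAS mice. All BCAS mice were at more than double the Sham level, and mouse 3 stood apart from the others. The means were 17.9 ± 2.13 and 58.2 ± 19.1 CPM (SD, n = 3 each), and edgeR gave 1.70 ± 0.21 on the log2 scale (SE, adjusted P = 5.13e-04), and 1.40 without BCAS mouse 3. Among BCAS mice Cp was lowest in mouse 2, and among Sham mice it was highest in mouse 3, the mice with the lowest choroid plexus sum of their groups (49.0 and 72.4 CPM). Of 8 astrocyte markers 7 rose, beside 18.0% of all tested genes, with Gfap rising most (log2 fold change 3.29). The 8 summed to 4441 to 4728 CPM in Sham mice and 9454 to 9969.9 CPM in BCAS mice. The part of astrocytes and of choroid plexus in the change of Cp was not tested.

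Lipocalin 2 is an acute phase protein made by reactive astrocytes and by neutrophils. Its mRNA changed most of the 10 genes and had the largest relative spread in both groups. Lcn2 (ENSMUSG00000026822.14, chromosome 2, 32384633 to 32388252) was counted 6, 4 and 27 times in Sham mice 1 to 3 against 166, 785 and 774 times in BCAS mice 1 to 3. These are 0.177, 0.120 and 0.787 CPM against 5.11, 26.0 and 24.8 CPM. Sham mouse 3 was above the other Sham mice, and BCAS mouse 1 was far below the other BCAS mice. The log2 fold change was 5.67 with a 95% interval from 3.92 to 7.42 (edgeR adjusted P = 8.96e-04), the widest interval of the 10 genes. It was 6.93 without Sham mouse 3. Of 8 neutrophil markers, 1 had enough counts to be tested and did not pass (S100a9, edgeR adjusted P = 0.202). S100a9 was counted 14, 3 and 28 times in Sham mice against 14, 40 and 44 times in BCAS mice, and S100a8 2, 4 and 9 times against 5, 36 and 24 times. The defining markers Elane and Ly6g had no more than 3 counts in any library. The 8 neutrophil markers summed to 1.80, 0.778 and 2.74 CPM in Sham mice and to 0.985, 3.12 and 2.44 CPM in BCAS mice. This is the order of Lcn2 between the mice of each group. The 8 astrocyte markers summed to 4728, 4498 and 4441 CPM in Sham mice and to 9969.9, 9454 and 9651 CPM in BCAS mice, another order. The part of neutrophils and of astrocytes in the change of Lcn2 was not tested.

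**Figure D3:**
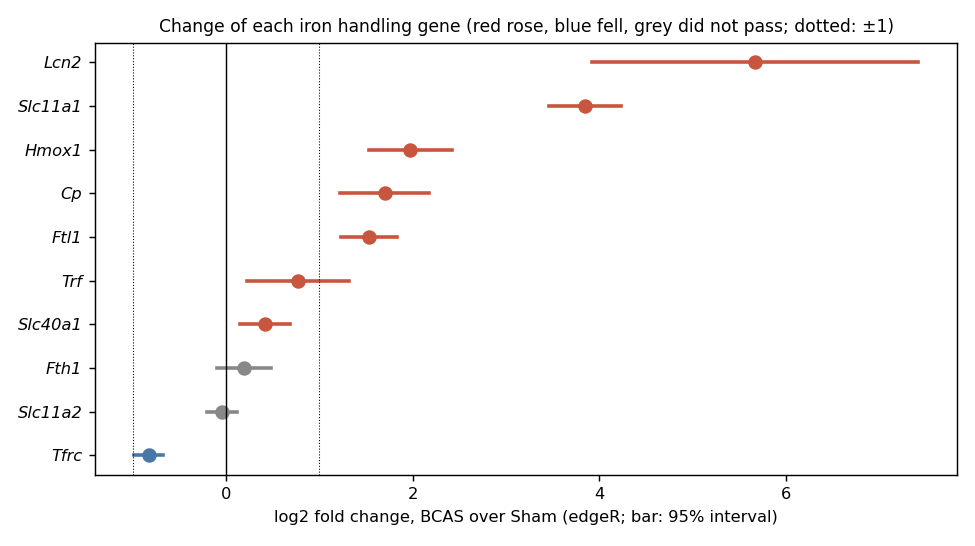
Log2 fold change of each iron handling gene between BCAS and Sham mice, with 95% intervals from edgeR (n = 3 mice each; dotted lines mark a log2 fold change of 1 in either direction). Lcn2 and Slc11a1 lie farthest to the right at 5.67 and 3.84, Tfrc lies to the left at -0.83, and the intervals of Fth1 and Slc11a2 include 0.

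Levels were compared between genes per kb of the exon length given in the count tables, leaving out Trf and Ftl1, whose counts cover part of the mRNA. In Sham mice the order was Fth1 with 2886 ± 123 CPM per kb, Tfrc with 23.3 ± 0.0804, Slc11a2 with 8.13 ± 0.0754, Hmox1 with 2.60 ± 0.341, Slc40a1 with 1.94 ± 0.182, Cp with 1.87 ± 0.222, Slc11a1 with 0.731 ± 0.116 and Lcn2 with 0.138 ± 0.141 (SD, n = 3 each). The tables give Fth1 866 exonic bases, while its longest coding transcript in GENCODE M21 has 1494, so its level per kb depends on the annotation. For the others the exonic bases exceed that transcript, as with Lcn2 (2623 against 915), Slc40a1 (9000 against 3370) and Cp (9566 against 4564). The order of the genes below Fth1 therefore also depends on the length used, in both groups. Slc40a1 and Cp differed by less than their spread. In BCAS mice the order after Fth1 (3296 ± 237) and Tfrc (13.1 ± 0.696) became Slc11a1 (10.5 ± 1.602), Hmox1 (10.2 ± 2.55), Slc11a2 (7.89 ± 0.386), Lcn2 (7.11 ± 4.48), Cp (6.09 ± 1.99) and Slc40a1 (2.58 ± 0.247 CPM per kb). From Slc11a1 to Cp, neighbours in that order differed by less than the larger of their SDs.

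The 3 BCAS mice were not alike. BCAS mouse 3 was highest for 8 of the 10 genes and for 6 of the 7 that rose, and it was lowest for none. Its summed microglia markers were 2383 CPM against 1492 and 1559.9 CPM in BCAS mice 1 and 2. BCAS mouse 3 also had the lowest sum of neuronal markers of all 6 mice. On the log2 scale, relative to its group mean, it was higher by 0.54 for Trf, 0.50 for Cp, 0.38 for Hmox1, 0.23 for Ftl1 and 0.19 for Slc11a1, beside 0.43 for the sum of microglia markers. Lcn2 had another order, with BCAS mouse 1 at -1.54 and BCAS mice 2 and 3 at 0.81 and 0.74. Red cell markers, a source of heme iron in blood, summed to 85.9 to 102 CPM in Sham mice and 112, 178 and 107 CPM in BCAS mice 1 to 3. None of the 5 tested red cell markers passed (Hbb-bs, edgeR adjusted P = 0.0512). The sum of the red cell markers was above every Sham mouse in all 3 BCAS mice. For 3 of the 5, every BCAS mouse was above every Sham mouse, as it was for 25.3% of all tested genes. The part of blood in the change of Hmox1 was not tested.

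**Figure D4:**
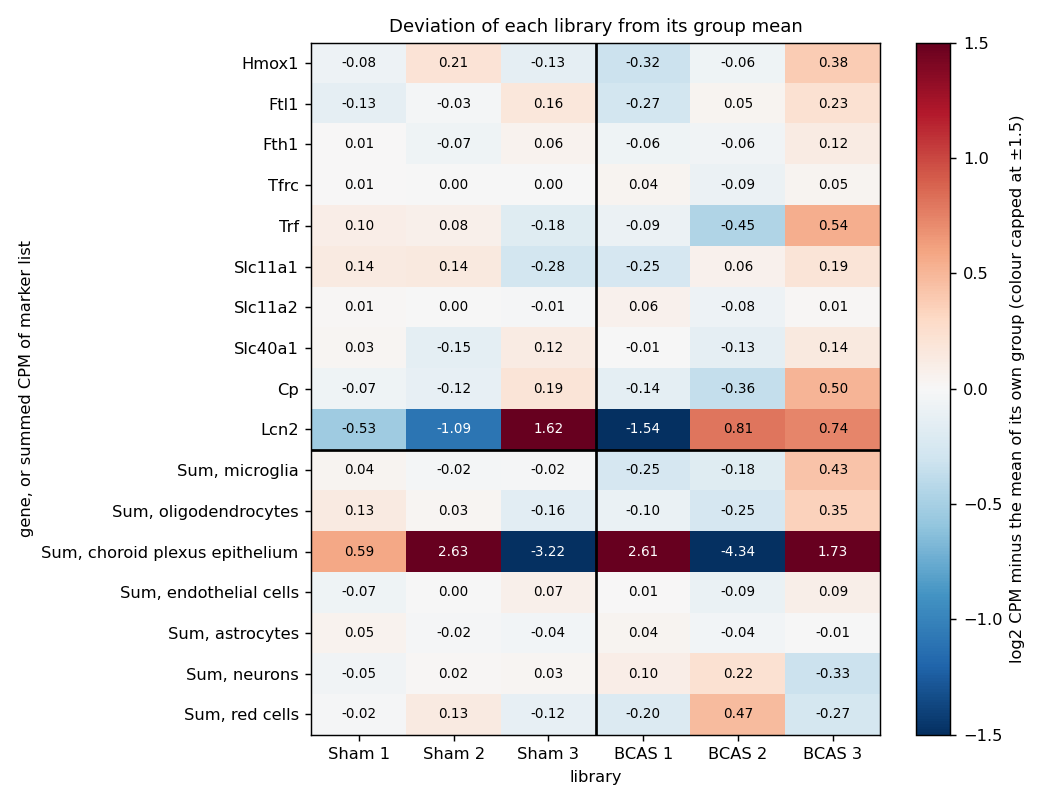
Log2 CPM of each iron handling gene, and of summed marker lists below the black line, in each library minus the mean of its own group (colour scale capped at 1.5 in either direction). BCAS mouse 3 is above its group mean for all 10 genes, and the choroid plexus sum varies far more than any gene, from -4.34 to 2.63.

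The wider iron system was read from 67 other genes, of which 60 were tested. Of these, 19 rose, 4 fell and 37 did not pass, with 10 up-regulated DEGs and 1 down-regulated DEG. Over all tested genes 18.0% rose, 13.2% fell, 8.47% were up-regulated DEGs and 0.999% were down-regulated DEGs. The median log2 fold change was 0.13 over the 60 genes and 0.018 over all tested genes.

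Genes that reduce and take up iron gave 6 of the 19 rises, from 13 tested, and none of them fell. Of all tested genes 18.0% rose and 13.2% fell. Cybrd1, a ferric reductase of the plasma membrane, had 6.05, 5.30 and 6.01 CPM in Sham mice and 24.5, 19.6 and 22.9 CPM in BCAS mice (log2 scale 1.95 ± 0.13, SE, edgeR adjusted P = 2.39e-05). Steap3, the reductase of transferrin endosomes, went from 7.28 ± 1.23 to 17.7 ± 2.35 CPM (SD, n = 3 each, log2 fold change 1.28). Steap4, a related reductase, rose with a log2 fold change of 2.54, from 0.350 to 2.93 CPM in Sham mice to 6.96 to 10.7 CPM in BCAS mice. Scara5, a receptor for ferritin, passed narrowly with overlapping groups (log2 fold change 1.74, edgeR adjusted P = 0.0425), at 1.45, 3.95 and 0.758 CPM against 8.34, 3.41 and 8.82 CPM. Steap4 and Scara5 were both lowest, within each group, in Sham mouse 3 and BCAS mouse 2, the mice with the least choroid plexus markers, whose part was not tested. Slc39a14, which carries iron not bound to transferrin, rose slightly (log2 fold change 0.38). Slc22a17, a receptor for Lcn2, was abundant with 700.0 ± 53.5 and 580.3 ± 67.6 CPM (SD, n = 3 each) and did not pass (log2 fold change -0.27, edgeR adjusted P = 0.103), and neither did the endolysosomal channel Mcoln1 (0.10).

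**Figure D5:**
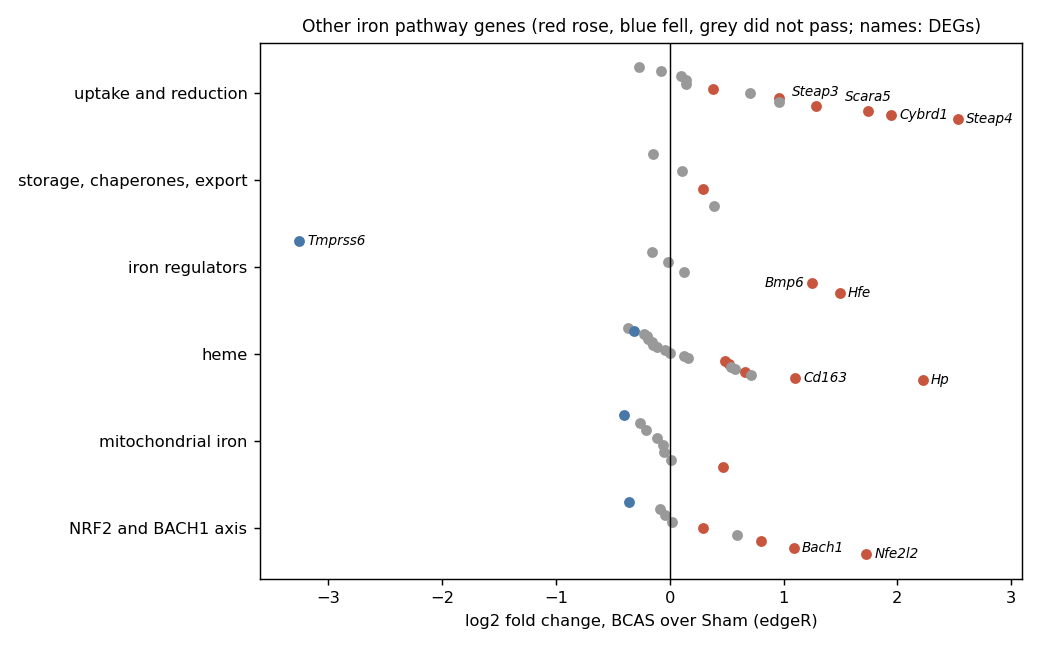
Log2 fold changes of the 60 tested genes of the wider iron system, by list (1 point per gene; red points rose, blue points fell and grey points did not pass; names mark DEGs). Of the uptake and reduction genes 6 of 13 rose, beside 18.0% of all tested genes, and Tmprss6 at -3.26 is the only down-regulated DEG.

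Among 6 tested regulators, the 3 that sense iron in cells did not pass. Ireb2 and Aco1, the iron regulatory proteins that bind the hairpins printed above, had log2 fold changes of -0.01 and 0.13, with 95% intervals from -0.16 to 0.13 and from -0.06 to 0.32. Fbxl5, which marks Ireb2 for decay when iron is plentiful, had -0.16 (edgeR adjusted P = 0.129). Hfe, a partner of the transferrin receptor that is also an MHC class I-like protein, rose from 7.85 ± 1.84 to 22.1 ± 5.70 CPM (SD, n = 3 each, log2 fold change 1.49, edgeR adjusted P = 0.00176). Bmp6, the ligand that drives hepcidin in the liver, rose from 19.2 ± 4.82 to 45.7 ± 15.4 CPM (log2 fold change 1.25, edgeR adjusted P = 0.00787), and Hfe and Bmp6 were both lowest among BCAS mice in mouse 2, at 15.6 and 28.1 CPM. In BCAS mice Bmp6 (56.9, 28.1 and 52.2 CPM) had the order of the choroid plexus sum, and in Sham mice Hfe (8.06, 9.58 and 5.92 CPM) had it, and the part of choroid plexus in either change was not tested. Tmprss6, a protease that restrains this pathway, fell, being counted 47, 32 and 17 times in Sham mice against 6, 2 and 1 times in BCAS mice (log2 fold change -3.26, edgeR adjusted P = 0.00628). Hepcidin itself (Hamp) had no more than 3 counts in any library, and a difference was not detectable at this depth.

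Of the 20 heme genes, 5 rose and 1 fell, beside 18.0% and 13.2% of all tested genes. Hp, Cd163 and Lrp1, of heme and hemoglobin scavenging, were among those that rose. Hp, haptoglobin, was counted 12, 13 and 8 times in Sham mice against 16, 67 and 59 times in BCAS mice (log2 fold change 2.22, edgeR adjusted P = 0.0182), low in BCAS mouse 1 as Lcn2 was. Cd163, the receptor for haptoglobin-bound hemoglobin and a marker of border-associated macrophages, went from 1.83 ± 0.143 to 3.94 ± 0.661 CPM (SD, n = 3 each, log2 fold change 1.10). Lrp1, which takes up heme-hemopexin among many ligands, rose from 378 ± 17.9 to 596 ± 77.7 CPM (log2 fold change 0.66, edgeR adjusted P = 0.00253). Hemopexin itself (Hpx) did not pass (log2 fold change -0.37, edgeR adjusted P = 0.587). Fech, which inserts iron into the ring, did not pass (-0.15). The other genes of the list that passed are named after their values were seen. Cpox, an enzyme of heme synthesis, fell (log2 fold change -0.31, edgeR adjusted P = 0.0160), whereas Ppox, the enzyme of the next step, rose (0.49, edgeR adjusted P = 0.0123), as did the heme exporter Flvcr1 (0.53, edgeR adjusted P = 0.0164). The heme transporter Slc48a1 had -0.04 and did not pass.

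Storage, chaperone and mitochondrial genes showed small changes. Ncoa4, which delivers ferritin to the lysosome, rose with a log2 fold change of 0.29 (42.3 ± 2.10 to 51.7 ± 1.86 CPM, SD, n = 3 each, edgeR adjusted P = 0.0192). The chaperones Pcbp1 (-0.15) and Pcbp2 (0.11) did not pass, and mitochondrial ferritin (Ftmt) and the ferroxidase Hephl1 had no more than 3 counts in any library. Of 8 genes of mitochondrial iron, 1 rose and 1 fell, beside 18.0% and 13.2% of all tested genes. Iscu (-0.06) and Glrx5 (-0.26), which are among the most abundant of them, did not pass, and the 2 that passed are named after their values were seen. Slc25a37 (mitoferrin 1), which imports iron, rose (0.46, edgeR adjusted P = 0.00834), and Lyrm4, of iron-sulfur cluster assembly, fell (-0.40, edgeR adjusted P = 0.0149).

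NRF2 (Nfe2l2) and BACH1 are the activator and the repressor that compete at the genes of heme oxygenase 1 and ferritin. Both mRNAs rose. Nfe2l2 had 20.4, 21.0 and 16.4 CPM in Sham mice and 52.3, 59.4 and 79.7 CPM in BCAS mice (log2 scale 1.73 ± 0.16, SE, edgeR adjusted P = 1.26e-04). Bach1 had 16.6, 18.2 and 17.1 CPM against 35.0, 32.5 and 42.9 CPM (log2 scale 1.09 ± 0.12, SE, edgeR adjusted P = 2.68e-04). Of the 9 genes of this list, 4 rose and 1 fell, beside 18.0% and 13.2% of all tested genes. Slc7a11, the cystine importer, rose from 68.0 ± 8.68 to 119 ± 16.9 CPM (log2 fold change 0.80), Gclm, of glutathione synthesis, did not pass (0.02, 95% interval -0.12 to 0.16), and Srxn1, sulfiredoxin, fell from 90.3 ± 1.97 to 70.7 ± 6.58 CPM (log2 fold change -0.35, edgeR adjusted P = 0.0117, SD, n = 3 each).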

How the data were processed

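The authors trimmed paired-end reads with Trim Galore, aligned them to mm10 with HISAT2 and counted reads per gene. The files deposited per library hold these raw counts without normalization. Per the file headers, featureCounts 2.0.3 with GENCODE vM20 counted each mate as a read, with defaults that ignore strand and leave out reads aligned to several places or to exons of several genes, whereas the methods name version 1.6.3. SAMtools 1.9 was used.

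Symbols were matched for 54723 of 54752 genes. The iron handling genes and the other lists were chosen with earlier results of these data known. Genes kept by filterByExpr were tested with edgeR 4.0.16 (R 4.3.3, limma 3.58.1, DESeq2 1.42.0) without a block, and the steps were tested on simulated data. Standard errors are the log2 fold change over the square root of F, and 95% intervals follow from them. Ratios of 2 genes were compared by exact permutation. Of the other lists, all DEGs and up to 3 genes with the highest mean CPM each are named, except 1 that is not reported here, while P2ry12, Aif1, S100a8, S100a9 and Hbb-bs were named after their values were seen. Limits of detection cover counting error only. Hjv was matched under its older symbol Hfe2. Alternatives were DESeq2, limma-voom, RLE, library totals, other filters, the replicate block and leaving out each mouse.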

Additional observations from a re-analysis of the deposited data

How the results depend on the processing

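The 5 up-regulated DEGs (Hmox1, Ftl1, Slc11a1, Cp and Lcn2) and Tfrc kept their direction and side of the threshold under all 13 alternatives run, and Fth1 did not pass under any. Trf did not pass with limma-voom (log2 fold change 0.72, adjusted P = 0.0598) or with the replicate number as a block (0.72, adjusted P = 0.0862). With each mouse left out, Trf ran from 0.44 to 0.96 (adjusted P = 0.00912 to 0.137) and Slc40a1 from 0.34 to 0.48 (0.0178 to 0.102). The cause was not tested, beyond fewer mice. Slc11a2 changed sign with library totals (0.033, adjusted P = 0.772). That setting put the all-gene median at 0.095 in place of 0.018. Without Sham mouse 3 the log2 fold change of Lcn2 was 6.93. Of the iron handling genes, 7 rose with all mice and 5 to 7 with each mouse left out. Of the other iron pathway genes, 19 rose with all mice and 13 to 20 with each mouse left out. Among these, 4 fell with all mice and 2 to 5 with each mouse left out, the 2 without Sham mouse 1. The replicate numbers gave no sign of pairing the mice, with residual correlations of 0.036, -0.314 and -0.158 between same-numbered libraries. With 3 libraries per group these values cannot exclude a pairing. The block changed the call of no iron handling gene except Trf, leaving 6 that rose.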
